A study of Mus musculus with 64 samples.

Results

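Potassium channel genes of heart muscle, 9 in all, were followed in mouse heart: Kcnip2, Kcnd2, Kcnd3, Kcna5, Kcnh2, Kcnq1, Kcnj2, Kcnj3 and Kcnj5. They were chosen by name as the subunits that carry the main repolarizing and resting potassium currents of heart muscle, and all 9 were among the 16913 genes of the deposited count table. The hearts came from C57BL/6J mice, in a study of exercise in a model of hypertrophic cardiomyopathy. Transgenic mice (TG) carried cTnT-delta160E, a mutant form of cardiac troponin T, and the others were non-transgenic (nTG). Mice stayed sedentary (Sed) or did high-intensity interval training (HIIT), which was running in sessions of 31 minutes, 3 per week for 6 weeks, each with 4 intervals at 85% and 4 at 50% of a speed measured beforehand. Males comprised 7 sedentary nTG, 9 sedentary TG, 8 trained nTG and 8 trained TG mice. Females comprised 8 sedentary nTG, 8 sedentary TG, 10 trained nTG and 6 trained TG mice, for 64 libraries in all. These sizes are those of the sample labels, from 6 to 10, whereas the text of the series gives 7 to 9 for each group. The labels give neither the promoter of the transgene nor the number of founder lines, nor ages, and they name the tissue as heart without dividing atria from ventricles.

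The heart muscle cell repolarizes through potassium channels that open in turn. The fast transient outward current is carried by Kv4 pores, encoded by Kcnd2 and Kcnd3, together with KChIP2, the calcium-binding accessory subunit encoded by Kcnip2, and it dominates early repolarization in the mouse ventricle. Kcna5 encodes Kv1.5, the pore of an ultrarapid delayed rectifier. Kcnh2 encodes ERG1 and Kcnq1 encodes Kv7.1, the pores of the rapid and slow delayed rectifiers, which matter more for repolarization in large mammals than in adult mice. Kcnj2 encodes Kir2.1, a main pore of the inward rectifier that holds the resting potential, and Kcnj3 and Kcnj5 encode Kir3.1 and Kir3.4, which together form the channel that acetylcholine opens through G protein subunits. Loss of KChIP2 and of transient outward current is a well-known feature of diseased and hypertrophied hearts.

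The columns of the gene table went against the labels they were named after, and every result below uses reassigned columns. Given to the labels by name, 45 of 64 libraries contradicted the labelled sex or genotype in their sex-linked genes or in Tnnt2, the gene of cardiac troponin T. A second table, of long non-coding RNAs, shares 389 autosomal transcripts with the gene table, and each of its columns took the gene column that correlated best with it. All 64 pairs were best in both directions, with r from 0.599 to 0.863 across transcripts and at most 0.404 for the next best, while 1 pair had the same name. After reassignment, 0 of 64 libraries contradicted their label, and Tnnt2 lay between 6903 and 12001 CPM (counts per megacount of the library total, TMM-scaled for the channel genes) in TG and between 2665 and 3428 CPM in nTG hearts. The reassignment takes the names of the second table as correct. Library totals ran from 34.6 M to 67.1 M counts (M, megacounts), and the 9 channel genes had between 720 and 9988 counts in each library.

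Of the 9 genes, 6 were lower in TG hearts in the mean genotype effect over the 4 combinations of sex and training, 1 was higher and 2 did not pass the test. Kcnip2 had the largest fall, of 37.1%, and Kcnj3 fell by 23.97%, Kcnh2 fell by 20.1%, Kcnj2 fell by 17.2%, Kcnj5 fell by 15.6% and Kcnq1 fell by 8.99%. Kcnd3 rose by 6.96%, and Kcnd2 and Kcna5 did not pass. The test was edgeR's quasi-likelihood test with Benjamini-Hochberg adjustment over all genes, and of the 16913 genes 20.5% passed lower and 18.5% higher in this contrast. The median log2 fold change was −0.24 over the 9 genes and 0.01 over all genes. By combination, 5 members were lower in sedentary males, where 11.2% of all genes passed lower, and 5 in trained males, where 8.31% did. In sedentary females 3 were lower against 2.78% of all genes, and in trained females 6 were lower against 9.43%. In each of these 4 contrasts 0 members passed as higher, where 9.39%, 5.65%, 1.58% and 5.37% of all genes did. Kcnip2, Kcnj3 and Kcnh2 passed in all 4.

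**Figure D1:**
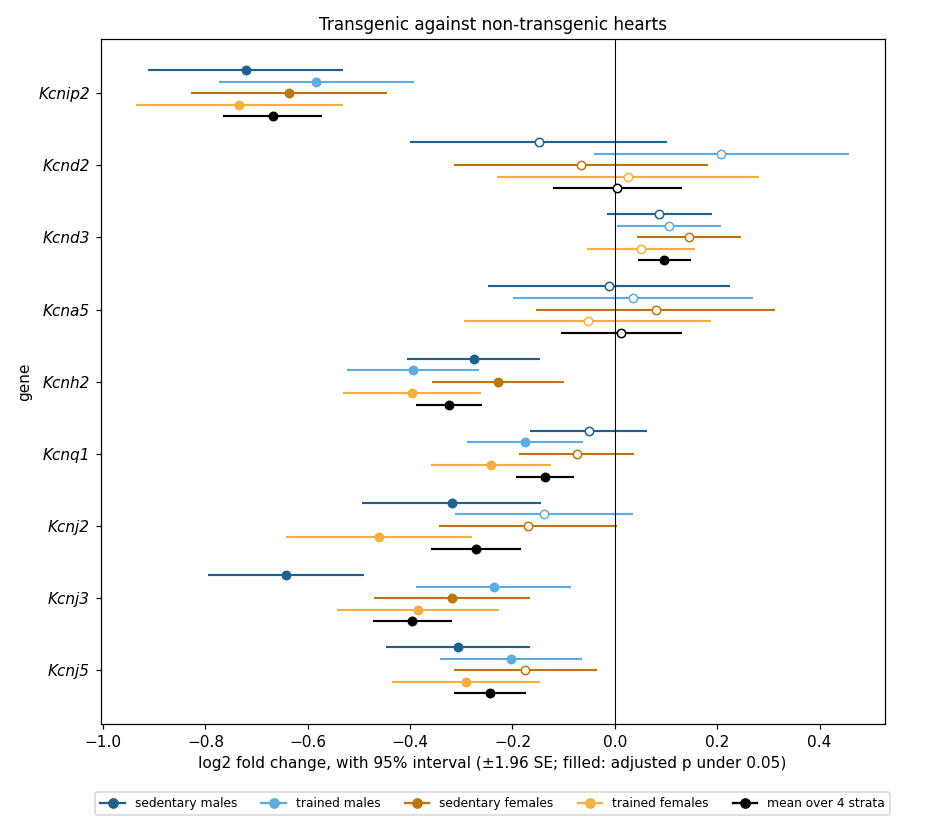
Log2 fold change of each gene in TG against nTG hearts (horizontal axis) with its 95% interval, in each combination of sex and training and as the mean over the 4. Filled points passed an adjusted p of 0.05. The points of Kcnip2 lie farthest to the left in the mean, at −0.67, and the mean of Kcnd3 lies at 0.10, right of 0.

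Promoter sequence is shown for 4 members: Kcnip2, Kcnj3 and Kcnh2, which fell in every combination, and Kcnd2, which did not pass in any. Each line holds the 250 bases before the RefSeq gene start in GRCm38.p6, read 5′ to 3′ on the strand of the gene, and capitals mark the GC box GGGCGG, the core letters of a site for Sp1, searched on both strands. The windows are chr19:45816064-45816313 on the minus strand for Kcnip2, chr6:21215096-21215345 on the plus strand for Kcnd2, chr2:55435720-55435969 on the plus strand for Kcnj3, and chr5:24329592-24329841 on the minus strand for Kcnh2. The Kcnh2 window lies inside the gene, before the start of a shorter transcript.
Kcnip2: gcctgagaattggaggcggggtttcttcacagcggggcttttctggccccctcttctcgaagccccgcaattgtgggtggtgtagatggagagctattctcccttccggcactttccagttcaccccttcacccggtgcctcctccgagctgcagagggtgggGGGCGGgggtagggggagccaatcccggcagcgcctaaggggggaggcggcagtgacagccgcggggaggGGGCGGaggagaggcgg
Kcnd2: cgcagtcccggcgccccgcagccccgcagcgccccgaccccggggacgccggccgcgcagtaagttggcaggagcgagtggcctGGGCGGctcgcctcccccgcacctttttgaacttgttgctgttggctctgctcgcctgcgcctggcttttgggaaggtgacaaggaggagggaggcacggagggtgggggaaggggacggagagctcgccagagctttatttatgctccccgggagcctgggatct
Kcnj3: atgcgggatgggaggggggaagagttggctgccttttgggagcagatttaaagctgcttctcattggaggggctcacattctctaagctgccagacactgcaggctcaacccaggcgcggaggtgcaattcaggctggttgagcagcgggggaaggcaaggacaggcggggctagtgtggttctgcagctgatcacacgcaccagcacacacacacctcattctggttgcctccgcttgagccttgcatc
Kcnh2: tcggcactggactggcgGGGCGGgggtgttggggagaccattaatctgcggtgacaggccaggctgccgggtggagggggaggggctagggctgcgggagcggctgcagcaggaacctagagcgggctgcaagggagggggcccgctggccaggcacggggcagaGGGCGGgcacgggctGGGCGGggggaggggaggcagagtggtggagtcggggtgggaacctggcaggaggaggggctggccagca

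The 8 members with a promoter in the RefSeq table (all but Kcnq1) were searched for 6 motifs on both strands. The GC box occurred 3 times before Kcnh2, 2 times each before Kcnip2, Kcnj2 and Kcnj5, and 1 time before Kcnd2, and had 0 matches before Kcnd3, Kcna5 and Kcnj3. Of all 32851 promoters of this length, 32.7% held it. GC content was 66.8% for Kcnip2, 68.8% for Kcnd2, 58.4% for Kcnj3 and 73.6% for Kcnh2, against a median of 52.4% over all promoters. The GATA motif AGATAA, the palindrome ACANNTGT of the Iroquois factors and the TATA box TATAAA had 0 matches in all 8 windows, and they occurred in 9.99%, 6.31% and 12.4% of all promoters. The NFAT core GGAAAA had 1 match, before Kcna5, against 20.4% of all promoters. The E box CANNTG, which any ACANNTGT match also contains, matched before Kcnip2, Kcnd3, Kcna5, Kcnj2, Kcnj3 and Kcnj5 and in 66.2% of all promoters. The GC box was present before genes that fell and before Kcnd2, which did not pass, and absent before Kcnj3, which fell. These matches describe letters only.

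Per kilobase of exon, the genes spanned a wide range of levels in nTG hearts. Kcnip2 stood highest at 41.5 ± 6.32 CPM per kb (SD, n = 33), followed by Kcnh2 at 27.3 ± 3.23 CPM per kb. Kcnj3 at 17.02 ± 2.13 and Kcnj5 at 16.8 ± 1.94 CPM per kb differed by less than their spread. The same held for Kcnq1 at 13.8 ± 1.36 and Kcnj2 at 13.04 ± 1.79 CPM per kb. Kcna5 lay at 10.01 ± 1.90, Kcnd2 at 4.55 ± 0.804 and Kcnd3 at 2.97 ± 0.233 CPM per kb. The accessory subunit KChIP2 thus had a higher RNA level per length than either Kv4 pore, and of the pores of the transient outward current Kcnd2 stood above Kcnd3. Exon lengths are those of all annotated exons of a gene, so a gene with long, rarely used exons reads lower. The values that follow are CPM without division by length and serve only for comparison of the same gene between groups.

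Kcnip2 (ENSMUSG00000025221, chr19:45791839-45816061, minus strand) fell in all 4 combinations. In sedentary males it ran from 133 through a median of 151 to 195 CPM in nTG (n = 7) and from 78.5 through 94.9 to 109 CPM in TG (n = 9), so that 9 of 9 TG hearts lay below every nTG heart. The log2 fold change was −0.72 ± 0.10 (SE, edgeR adjusted p 2.01e-07), a fall of 39.4%. Trained males had 112, 130.4 and 164 CPM as the lowest, median and highest value in nTG (n = 8) and 58.4, 87.9 and 114 CPM in TG (n = 8), and 7 of 8 TG hearts were below every nTG heart. Their difference was −0.58 ± 0.10 (edgeR adjusted p 1.93e-05). The overlap in trained males comes down to a single TG heart above the lowest nTG heart. Among sedentary females, nTG hearts had 98.6, 140.4 and 165 CPM (n = 8) and TG hearts 68.8, 86.5 and 105 CPM (n = 8), with 6 of 8 TG hearts below every nTG heart and a difference of −0.64 ± 0.10 (edgeR adjusted p 8.65e-06). Trained females had 125, 149 and 201 CPM in nTG (n = 10) and 80.1, 89.5 and 106 CPM in TG (n = 6), where 6 of 6 TG hearts lay below all nTG hearts and the difference was −0.73 ± 0.10 (edgeR adjusted p 7.23e-07). The groups were apart in sedentary males and trained females and overlapped by 1 or 2 TG hearts in the others.

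**Figure D2:**
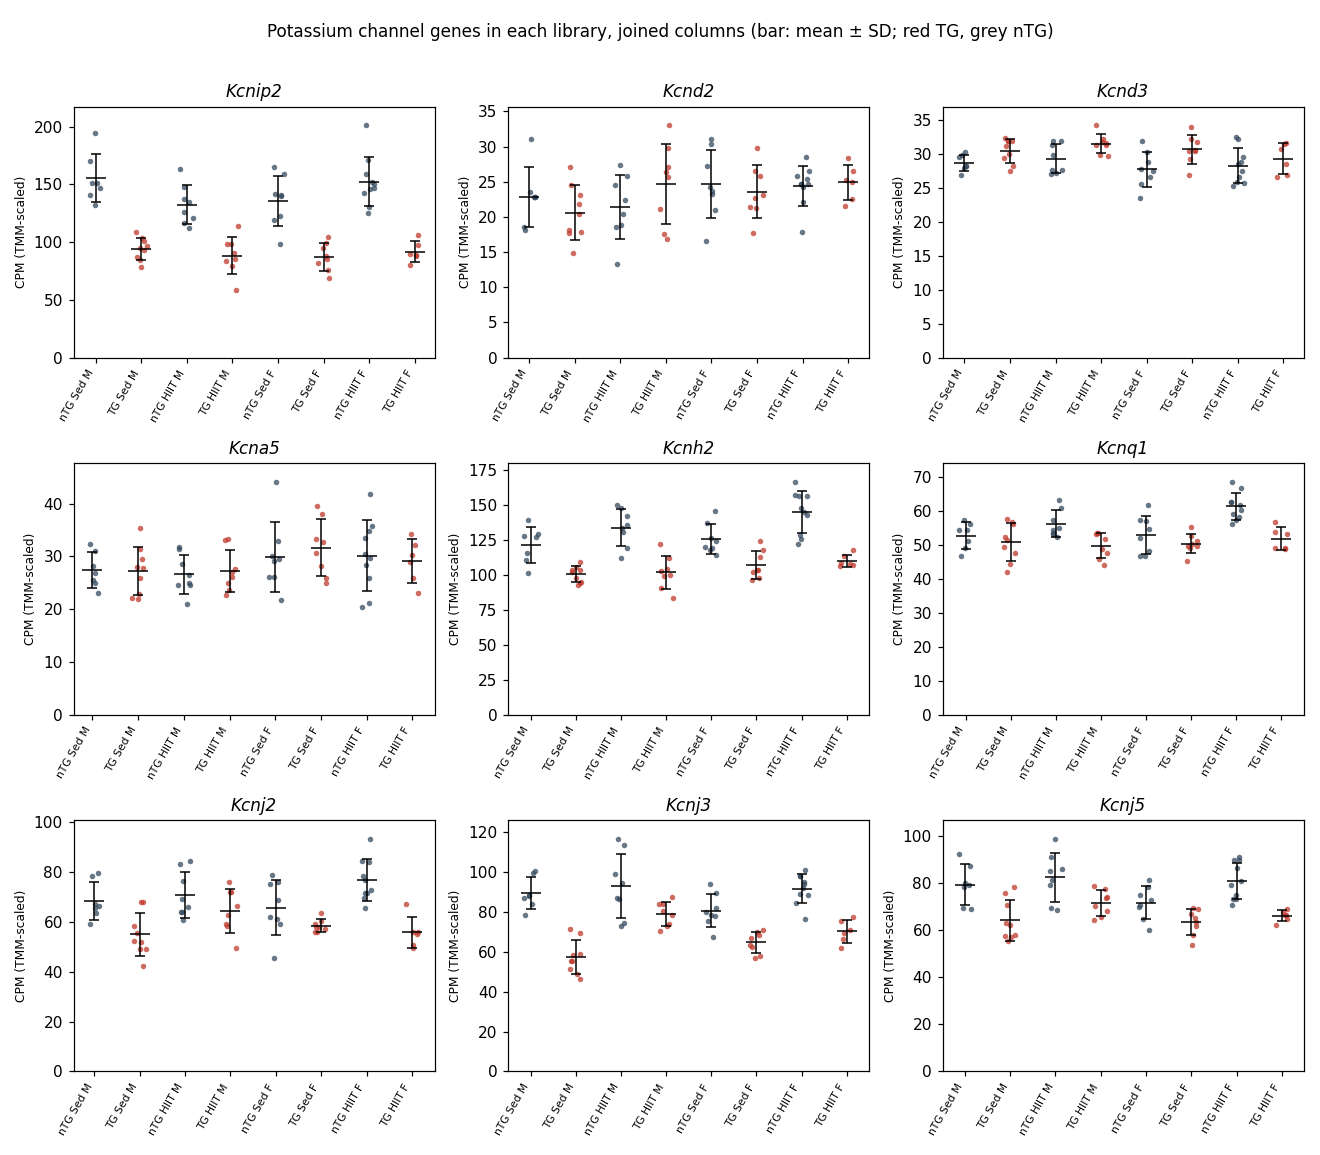
CPM of each gene in each of the 64 libraries, by group, on a linear axis per gene, with the group mean and SD as a bar, TG in red and nTG in grey. Kcnip2 is lower in the TG group of every combination, while Kcnd2, from 13.3 to 33.1 CPM, and Kcna5, from 20.4 to 44.1 CPM, overlap in all.

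Kcnd2 (ENSMUSG00000060882, chr6:21215503-21729805, plus strand), the Kv4.2 pore, did not pass in any combination. Its group means lay between 20.6 CPM in sedentary TG males and 24.9 CPM in trained TG females, with single libraries from 13.3 to 33.1 CPM. The log2 fold changes of TG against nTG were −0.15, 0.21, −0.07 and 0.03 in sedentary and trained males and in sedentary and trained females, and the mean was 0.00 ± 0.06 (edgeR adjusted p 0.962) with a 95% interval from −0.12 to 0.13. The interval does not reach the size of the Kcnip2 fall.

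Kcnd3 (ENSMUSG00000040896, chr3:105452330-105674002, plus strand), the Kv4.3 pore, was slightly higher in TG hearts in the mean effect alone, by 0.10 ± 0.03 (edgeR adjusted p 0.00209). Group means ran from 27.8 to 31.6 CPM and libraries from 23.6 to 34.3 CPM, so the groups overlapped in every combination. The 4 single differences were 0.09, 0.11, 0.14 and 0.05, and none of these 4 passed. Set against the Kv4 pores, Kcnip2 per Kcnd2 plus Kcnd3 (CPM per kb) was 6.10 ± 1.09 in sedentary nTG males (SD, n = 7) and 3.79 ± 0.326 in sedentary TG males (SD, n = 9). It was 5.30 ± 0.389 against 3.16 ± 0.476 in trained males, 5.17 ± 1.04 against 3.25 ± 0.457 in sedentary females and 5.70 ± 0.649 against 3.34 ± 0.243 in trained females. In trained mice the lowest nTG ratio, 4.77 in males and 4.63 in females, was above the highest TG ratio, 3.78 and 3.75. In sedentary mice the ranges overlapped, with a lowest nTG ratio of 4.19 and a highest TG ratio of 4.45 in males, and 3.73 and 4.05 in females. The ratio is a description, with no test.

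**Figure D3:**
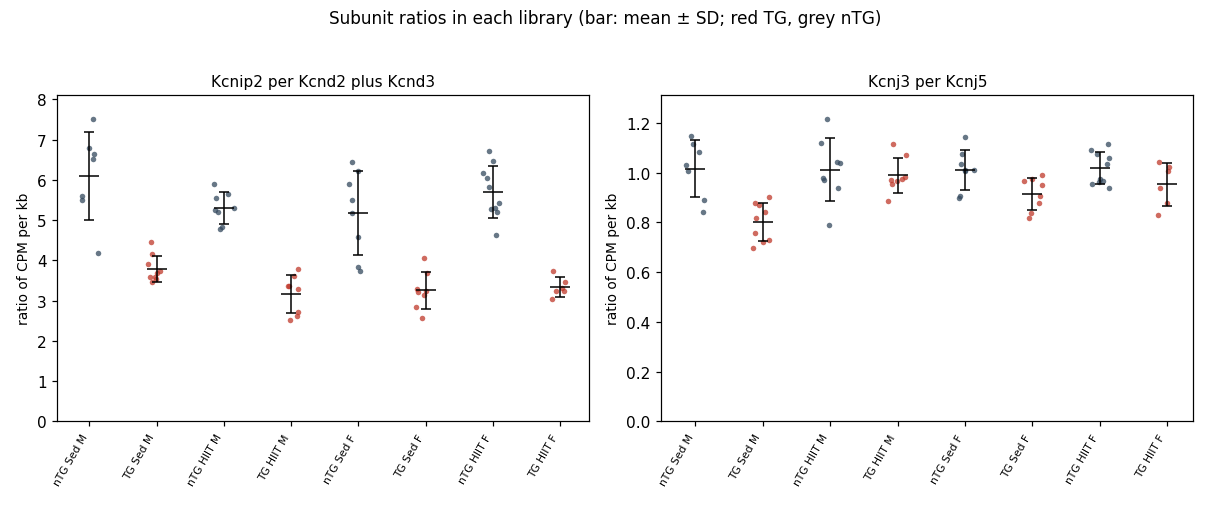
Ratios of subunit RNA levels (CPM per kb) in each library, by group, with mean and SD as a bar, TG in red and nTG in grey. Left, Kcnip2 per Kcnd2 plus Kcnd3 is lower in TG, from 3.16 to 3.79 in group means against 5.17 to 6.10 in nTG. Right, Kcnj3 per Kcnj5 has its lowest group mean, 0.801, in sedentary TG males.

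Among the delayed rectifiers, Kcnh2 (ENSMUSG00000038319, chr5:24319589-24351604, minus strand) fell in all 4 combinations and Kcnq1 in the trained ones. Kcnh2 had 101, 127 and 139 CPM as the lowest, median and highest value in sedentary nTG males and 92.4, 102 and 109 CPM in sedentary TG males, a difference of −0.28 ± 0.07 (edgeR adjusted p 0.00146) with 4 of 9 TG hearts below all nTG hearts. Trained males had 112, 134 and 149.8 CPM in nTG and 83.4, 101 and 122 CPM in TG, a difference of −0.39 ± 0.07 (edgeR adjusted p 1.66e-05). In trained males 6 of 8 TG hearts lay below every nTG heart. In sedentary females nTG hearts had 114, 122 and 146 CPM and TG hearts 96.0, 104 and 124 CPM, and the difference was −0.23 ± 0.07 (edgeR adjusted p 0.0297). This call is the least secure of the 4: it was lost in 7 of 16 fits that left out a single library, with differences from −0.22 to −0.19 and adjusted p from 0.0508 to 0.0746, namely without TG sedentary female replicate 1, 3, 5, 6 or 7 or nTG sedentary female replicate 4 or 6. Trained females had 122, 146 and 166 CPM in nTG and 106, 108 and 118 CPM in TG, with 6 of 6 TG hearts below all nTG hearts and a difference of −0.40 ± 0.07 (edgeR adjusted p 3.54e-05).

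Kcnq1 (ENSMUSG00000009545, chr7:143106362-143427042, plus strand) changed less. Trained nTG males had 52.3, 54.8 and 63.3 CPM and trained TG males 44.2, 50.3 and 53.6 CPM, a difference of −0.18 ± 0.06 (edgeR adjusted p 0.0300). Trained nTG females had 56.1, 61.02 and 68.6 CPM and trained TG females 48.9, 51.3 and 56.9 CPM, a difference of −0.24 ± 0.06 (edgeR adjusted p 0.00339). In both, 5 TG hearts lay below every nTG heart, of 8 and of 6. In sedentary mice the differences were −0.05 in males (edgeR adjusted p 0.583) and −0.07 in females (adjusted p 0.581), and these did not pass. The trained male call was lost in 5 of 16 fits without a single library, with differences from −0.17 to −0.15 and adjusted p from 0.0541 to 0.0864, namely without trained TG male replicate 4, 6 or 8 or trained nTG male replicate 5 or 6. Exons of Kcnq1 overlap those of Kcnq1ot1, a long non-coding RNA read from the opposite strand, which had 57.7 to 72.0 CPM in group means. Kcnq1ot1 moved the other way in trained females, by 0.28 ± 0.10 (edgeR adjusted p 0.0446), and did not pass in trained males, at 0.05. The sources used here do not say whether counting used the strand, and reads of the overlap from either gene cannot be told apart without it. The same holds for Kcnj3 with Gm26794 and for Kcnd3 with Kcnd3os, non-coding RNAs whose exons lie opposite to theirs; Kcnd3os had at most 0.427 CPM in group means.

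Kcna5 (ENSMUSG00000045534, chr6:126532551-126535412, minus strand) did not pass in any comparison. Its group means ran from 26.6 CPM in trained nTG males to 31.7 CPM in sedentary TG females, and the genotype differences were −0.01, 0.04, 0.08 and −0.05. Their mean was 0.01 ± 0.06 (edgeR adjusted p 0.890), with a 95% interval from −0.11 to 0.13.

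Of the inward rectifiers, Kcnj3 (ENSMUSG00000026824, chr2:55435970-55598145, plus strand), the Kir3.1 pore, had the largest fall after Kcnip2 in the mean effect, and sedentary males had the largest of its 4 differences. In sedentary males it had 78.6, 87.8 and 101 CPM as the lowest, median and highest value in nTG and 46.4, 55.6 and 71.3 CPM in TG. All 9 TG hearts lay below every nTG heart, and the difference was −0.64 ± 0.08 (edgeR adjusted p 1.66e-08), a fall of 35.9%. Trained males had 72.6, 90.7 and 116 CPM in nTG and 70.1, 79.3 and 87.3 CPM in TG, with 1 of 8 TG hearts below every nTG heart and a difference of −0.24 ± 0.08 (edgeR adjusted p 0.0304). That call was lost in 6 of 16 fits without a single library, with differences from −0.22 to −0.18 and adjusted p from 0.0558 to 0.114, namely without trained nTG male replicate 4, 5 or 6 or trained TG male replicate 4, 5 or 7. Sedentary females had 67.3, 79.1 and 94.0 CPM in nTG and 57.1, 65.2 and 71.0 CPM in TG, a difference of −0.32 ± 0.08 (edgeR adjusted p 0.00764) with 5 of 8 TG hearts below all nTG hearts. Trained females had 76.3, 93.1 and 101 CPM in nTG and 61.6, 70.1 and 77.3 CPM in TG, a difference of −0.38 ± 0.08 (edgeR adjusted p 0.000588) with 5 of 6 TG hearts below. Only sedentary males showed groups fully apart.

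Kcnj5 (ENSMUSG00000032034, chr9:32314707-32344350, minus strand), the Kir3.4 partner of Kir3.1, fell in 3 combinations. It had 69.1, 79.2 and 92.7 CPM in sedentary nTG males and 55.3, 62.4 and 78.5 CPM in sedentary TG males, a difference of −0.31 ± 0.07 (edgeR adjusted p 0.00111). Trained males had 68.5, 83.5 and 98.9 CPM in nTG and 64.2, 72.2 and 79.0 CPM in TG, a difference of −0.20 ± 0.07 (edgeR adjusted p 0.0433). The trained male call lay near the threshold: it was lost in 9 of 16 fits without a single library, with differences from −0.21 to −0.16 and adjusted p from 0.0506 to 0.124, namely without trained nTG male replicate 4, 5, 6, 7 or 8 or trained TG male replicate 3, 4, 6 or 7. Trained females had 70.8, 80.3 and 91.1 CPM in nTG and 62.2, 66.6 and 69.0 CPM in TG, where 6 of 6 TG hearts lay below all nTG hearts and the difference was −0.29 ± 0.07 (edgeR adjusted p 0.00443). Sedentary females, at −0.17 ± 0.07 (edgeR adjusted p 0.167), did not pass. The ratio of Kcnj3 to Kcnj5 per kilobase was between 1.01 and 1.02 in the 4 nTG group means. In TG it was 0.801 ± 0.0769 in sedentary males (SD, n = 9), 0.990 ± 0.0708 in trained males (SD, n = 8), 0.915 ± 0.0648 in sedentary females (SD, n = 8) and 0.953 ± 0.0851 in trained females (SD, n = 6). These ratios too were given no test.

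Kcnj2 (ENSMUSG00000041695, chr11:111066164-111076821, plus strand), the Kir2.1 pore, fell in sedentary males and trained females. Sedentary males had 59.1, 66.4 and 79.7 CPM in nTG and 42.3, 52.4 and 68.2 CPM in TG, with 7 of 9 TG hearts below every nTG heart and a difference of −0.32 ± 0.09 (edgeR adjusted p 0.00655). Trained females had 65.6, 74.9 and 93.3 CPM in nTG and 49.7, 55.6 and 67.3 CPM in TG, with 5 of 6 below and a difference of −0.46 ± 0.09 (edgeR adjusted p 0.000347). Trained males, at −0.14 (edgeR adjusted p 0.323), and sedentary females, at −0.17 (adjusted p 0.334), did not pass. Whether the genotype effect differs between sexes was tested in sedentary mice, and 0 of the 9 genes passed in edgeR, with 0% of all genes passing, and 0 also in DESeq2 and limma voom. At an unadjusted p under 0.05 in edgeR there was 1 member, Kcnj3, and 1471 of all 16913 genes. The Kcnj3 difference between the sexes was 0.32 ± 0.11 (edgeR adjusted p 0.431).

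Training was compared within each sex and genotype, and Kcnj3 in TG males was the one member that passed. Trained TG males had 70.1, 79.3 and 87.3 CPM against 46.4, 55.6 and 71.3 CPM in sedentary TG males, and 7 of 8 trained hearts lay above every sedentary heart. The difference was 0.46 ± 0.08 (edgeR adjusted p 0.000594), a rise of 37.7%, in a comparison where 10.3% of all genes passed higher. The trained TG males, at a mean of 78.8 CPM, stood between the sedentary TG males at 57.3 CPM and the sedentary nTG males at 89.3 CPM. In the same comparison Kcnj2 had a difference of 0.23 (edgeR adjusted p 0.0537), Kcnd2 of 0.26 (adjusted p 0.126) and Kcnj5 of 0.16 (adjusted p 0.104), and none of these 3 passed. Kcnj2 passed in DESeq2, and Kcnj2 and Kcnj5 in limma voom. Kcnip2 did not pass in any training comparison, and in trained TG males its mean was 88.4 CPM against 94.3 CPM in sedentary TG males.

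**Figure D4:**
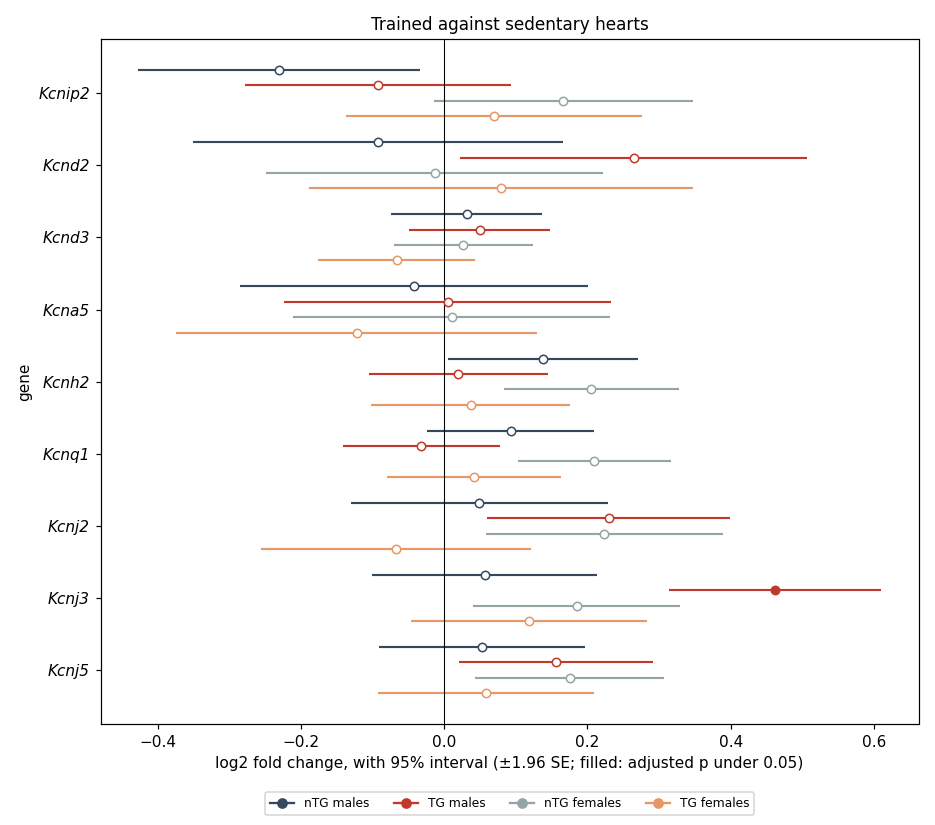
Log2 fold change of each gene in trained against sedentary hearts (horizontal axis) with its 95% interval, in nTG and TG males and females. The filled point, Kcnj3 in TG males at 0.46, is the one that passed an adjusted p of 0.05.

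In nTG females 0 members passed after training in edgeR, where 0.148% of all genes passed, and 1, Kcnq1, passed in DESeq2 and in limma voom. At an unadjusted p under 0.05 in edgeR there were 5 members, and 2406 of all 16913 genes. Its difference was 0.21 ± 0.05 (edgeR adjusted p 0.0921), with 46.7, 53.4 and 61.9 CPM in sedentary and 56.1, 61.02 and 68.6 CPM in trained nTG females. The other 4 with an unadjusted p under 0.05 were Kcnh2 at 0.21, Kcnj2 at 0.22, Kcnj5 at 0.18 and Kcnj3 at 0.18, all with higher means after training. In nTG males 0 members passed (2 before adjustment) and in TG females 0 (0 before adjustment), in edgeR, DESeq2 and limma voom, where 0% of all genes passed in edgeR. Before adjustment 999 of all 16913 genes were under 0.05 in nTG males and 606 in TG females. Kcnip2 in nTG males was −0.23 (edgeR adjusted p 0.767). Whether training acted differently in TG and nTG was tested by interaction: in edgeR 0 members passed in males (1 before adjustment, at p under 0.05) and 0 in females (2 before adjustment), where 0% of all genes passed. Before adjustment 2503 of all 16913 genes were under 0.05 in males and 1093 in females. In males the interaction of Kcnj3 was 0.41 ± 0.11 (edgeR adjusted p 0.131, and 0.0406 in limma voom, where 300 genes passed). Between sedentary nTG females and males, 0 members passed in edgeR, against 2.22% of all genes, and 0 also in DESeq2 and limma voom. At an unadjusted p under 0.05 in edgeR there was 1 member, and 2571 of all 16913 genes.

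The other genes of these currents were described as lists, for the mean genotype effect, in which the median over all genes was 0.01, 18.5% of all genes were higher and 20.5% lower. Of 11 other voltage-gated pore subunits measured, 2 were higher and 3 lower in TG, with a median of −0.06; they included Kcng2, a modifier subunit, at −0.27 and Kcnc1, a pore subunit, at 0.30 (edgeR adjusted p 0.00748). These counts lie near the shares over all genes. Of 9 accessory subunits, 4 were higher and 0 lower, with a median of 0.23, among them Kcnab2, a Kv1 beta subunit, at 0.38 (edgeR adjusted p 1.1e-05) and Kcne4 at 0.23 (adjusted p 0.0280). By combination, 4 of the 9 accessory subunits, not necessarily the same 4, were higher in sedentary males, where 9.39% of all genes were. In trained males, sedentary females and trained females 0 passed in either direction. Of all genes, 5.65%, 1.58% and 5.37% were higher there and 8.31%, 2.78% and 9.43% lower. Of 8 other inward rectifier and ATP-sensitive channel subunits, 1 was higher and 4 lower, with a median of −0.08. The lower ones were Abcc9, the SUR2 subunit, at −0.29, Kcnj11, its Kir6.2 pore, at −0.24, Kcnj12, the Kir2.2 pore, at −0.13, and Kcnj4, the Kir2.3 pore, at −0.72. Of the pores of the resting current, Kcnj2, Kcnj4 and Kcnj12 were thus lower in TG in the mean effect. Kcnj4 had a low level, with group means from 0.804 to 1.85 CPM. Kcnj12 in sedentary females differed by less than its spread, at 33.74 ± 2.37 CPM in nTG and 33.02 ± 3.45 CPM in TG (SD, n = 8 each). Kcnj2 passed in 2 of the 4 combinations.

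The lists that follow are read against the same shares, 18.5% higher and 20.5% lower over all genes. The receptor side of the acetylcholine-activated current held 5 higher and 2 lower genes of 12, with a median of 0.02. Chrm2, the muscarinic receptor of heart muscle, was lower by −0.28 and Rgs6, which shortens G protein signals, by −0.34, while Gnao1 was higher by 0.46 and Gnai3 by 0.14. Of 12 transcription factors studied for these genes, 0 were higher and 7 lower, with a median of −0.13. Irx3, Irx5 and Irx4, Iroquois factors of the heart, were lower by −0.39, −0.35 and −0.18, and Tbx5, a T-box factor, by −0.20. Of 9 scaffolds and regulators 1 was higher and 4 lower, with a median of −0.03, among them Cav3, the caveolin of muscle, at −0.16, and Camk2d, a calmodulin-dependent kinase, at 0.07. Of 14 two-pore and calcium- or sodium-activated channels 4 were higher and 2 lower, with a median of 0.01; Kcnk3, the TASK-1 pore, was at −0.25 and Kcnt2 at 0.41. The counts of this last list are also near the shares over all genes.

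Markers of cell types moved with genotype as well. Of 6 markers of heart muscle cells 5 were lower in TG, with a median of −0.10. They were Myl2 at −0.20, Myh6 at −0.16, Actc1 at −0.11, Tnni3 at −0.08 and Actn2 at −0.04, and Ryr2, at −0.04 (edgeR adjusted p 0.318), did not pass. The members lower in TG ran from −0.14 for Kcnq1, −0.24 for Kcnj5 and −0.27 for Kcnj2 to −0.67 for Kcnip2 in the same contrast. All 5 fibroblast markers and all 5 macrophage markers measured were higher, with medians of 0.34 and 0.38. Summed fibroblast markers ran from 422 to 596 CPM in sedentary nTG males and from 490.0 to 792 CPM in sedentary TG males, and from 394 to 528 against 503 to 964 CPM in trained males. In females they ran from 468 to 750.4 against 577 to 749 CPM when sedentary and from 458 to 571 against 573 to 722 CPM when trained. Summed heart muscle markers ran from 56476 to 67031 CPM in sedentary nTG males against 50451 to 59664 CPM in TG, from 56870 to 67557 against 46822 to 61856 CPM in trained males, from 55292 to 65338 against 53092 to 59888 CPM in sedentary females and from 58855 to 67366 against 53124 to 60499 CPM in trained females. These sums overlapped between genotypes in every combination for heart muscle, whereas for fibroblasts they were apart in trained females. Summed macrophage markers ran from 129.7 to 178 CPM in nTG against 166 to 298 CPM in TG in sedentary males, from 128 to 167 against 170.0 to 296 CPM in trained males, from 161 to 237 against 165 to 248 CPM in sedentary females and from 144 to 195 against 182 to 266 CPM in trained females, so that they were apart in trained males. Both measured markers of skeletal muscle, Myl1 and Mybpc2, were higher, with a median of 1.41. Tnnt3, Actn3 and Myh4 of the same list were not among the 16913 genes. The sum of Myl1 and Mybpc2 was apart in every combination. It ran from 30.3 to 43.6 CPM in nTG against 71.9 to 135 CPM in TG in sedentary males and from 25.3 to 51.3 against 68.8 to 165 CPM in trained males. In females it ran from 32.7 to 52.6 against 74.6 to 119 CPM when sedentary and from 29.1 to 53.8 against 72.7 to 101 CPM when trained. Of the other lists, 3 of 5 blood markers were lower, and of 5 conduction system markers 1 was higher and 2 lower. In trained males 5 of 5 blood markers were lower, with a median of −1.22. Of 5 endothelial markers 0 were higher and 1 lower in the mean effect, with a median of −0.04. Of 5 smooth muscle and pericyte markers and of 4 measured markers of glia and neurons 0 passed. In heart tissue, fewer cells of a type and less RNA per cell cannot be told apart, and the part of cell makeup in the falls of the channel genes was not tested. Atrial markers, which matter because Kcnj3, Kcnj5 and Kcna5 are known for atrial expression, had 0 of 5 passing, and their sum ran widely, from 24.7 to 345 CPM over libraries. The atrial markers Myl7 and Sln were at 0 in 1 and 5 of 64 libraries. Without the 2 libraries in which the sum stood apart from its group, Kcnh2 in sedentary females no longer passed, at −0.19 (edgeR adjusted p 0.0745), and the other member calls of the genotype comparisons held.

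Some pairs of channel genes varied together across hearts of the same group. After the mean of each group was subtracted, Kcnj3 and Kcnj5 had r = 0.638 (rho 0.594) over 64 libraries, and Kcnj2 and Kcnj3 had r = 0.630 (rho 0.579). Kcnh2 and Kcnq1 had r = 0.540, and Kcnip2 and Kcnd2 had r = 0.497. The lowest of all pairs was Kcna5 with Kcnj2, at −0.202. By the same measure over all genes with a symbol and a mean of at least 50 counts, the genes most like Kcnip2 were Slc2a4, the insulin-responsive glucose transporter, at 0.714, Pdk2, a kinase of pyruvate dehydrogenase, at 0.708, and Cacna1s, a calcium channel pore, at 0.704. Most like Kcnd2 was Slc9a2 at 0.761, most like Kcnd3 was Foxn3 at 0.597, and most like Kcna5 was S1pr1, a sphingosine phosphate receptor, at 0.802. Antxr2 was the gene most like Kcnj2, at 0.785, and it was at 0.679 with Kcnj3, where Grb14 led at 0.722. Adra1b, an adrenergic receptor, led for Kcnj5 at 0.691 and Bcam for Kcnq1 at 0.691. Libraries share depth scaling and cell makeup, so these correlations are descriptions and carry no p.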

How the data were processed

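Hearts of 64 mice were profiled by RNA sequencing. Per the submitters' processing notes, the tools named were cutadapt 2.3, FastQC 0.11.8, MultiQC 1.7, STAR 2.7.8a and RSEM 1.3.3, with GRCm38 and mm10 as builds. The strand setting is not given in the sources used here. The authors deposited whole-number counts for 16913 genes and expected counts for 3787 long non-coding RNAs, of which 45 were fractional in at least 1 library. The expected counts served only to reassign the gene columns, by Pearson's r of centred log2 CPM (pseudocount 0.5) over transcripts with a mean of at least 20 counts in both tables. A label was read as contradicted in genotype where Tnnt2 lay on the wrong side of 5000 CPM. Symbols and positions came from GENCODE M21, which matched 16879 identifiers.

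Counts were tested with edgeR 4.0.16 (glmQLFit and glmQLFTest) after TMM scaling, in 1 model of 8 group means, with adjustment over all genes in each of 13 comparisons, and a threshold of 0.05. filterByExpr kept every gene, so all members passed it. Alternatives were DESeq2 1.42.0, limma 3.58.1 voom with quality weights, other size factors, no filter, fewer groups, library number, the replicate block, and fits without libraries. The edgeR test and the column reassignment were also tested on simulated data. Levels per kilobase divide by the union of annotated exons. Likeness is Pearson's r of log2 CPM (prior count 2) after removal of group means.

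All members may be named in every comparison. Of each list, the up to 4 genes with the smallest p among those called in the mean genotype effect, with at least 50 counts on average, may be named. For each member, up to 3 of the genes most like it may be named. Some genes that the rule names are not reported here. The 6 heart muscle markers, the skeletal muscle markers and Myl4 were named after their values were seen. The members and lists were chosen with earlier results of these data known. Replicates are separate samples by their labels.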

Additional observations from a re-analysis of the deposited data

Results flagged for a closer look

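In 88 groups of values tested (each member, and the summed atrial and heart muscle markers, in each group of 6 to 10 libraries), 4 had a single library far from the rest, where about 4.4 would be so by chance at the 5% level used. Kcnd2 was 31.1 CPM in sedentary nTG male replicate 6, while the other libraries of its group had 18.2 to 23.5 CPM. Kcnj2 was 67.3 CPM in trained TG female replicate 6, where the rest of the group had 49.7 to 56.1 CPM. The summed atrial markers were 345 CPM in sedentary nTG male replicate 5, beside 26.1 to 116 CPM elsewhere in the group, and 231 CPM in sedentary nTG female replicate 4, beside 28.4 to 79.9 CPM. The part of any of these in a result was not tested beyond the fits without them.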

How the results depend on the processing

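With gene columns given to the labels by name, 0 members passed in the genotype comparison in sedentary males, trained males, sedentary females, trained females and their mean, and 0 in trained against sedentary TG males. In nTG males 1 passed with training, Kcnip2, at −0.70 (edgeR adjusted p 0.0424). By name, the trained male differences turned to 0.39 for Kcnip2, 0.0834 for Kcnj3, 0.16 for Kcnj5, 0.13 for Kcnh2 and 0.0404 for Kcnq1, those of trained females to 0.0662 for Kcnj2 and 0.0280 for Kcnj3, and training of TG males to −0.0175 for Kcnj3. A fit of only the groups compared left 3 members in trained males, without Kcnj3 at −0.23 and Kcnj5 at −0.20, and Kcnh2, at −0.22, no longer passed in sedentary females. With training, DESeq2 called 2 members in TG males, among 3314 of 16913 genes, and 1 in nTG females, among 95. For these limma voom called 3 members among 4541 genes and 1 among 100, and it called 1 among 300 in the male interaction. Leaving out single libraries gave 2 to 5 members in trained males, 2 to 4 in sedentary females, 1 to 3 in TG males with training and 0 to 1 in nTG females with training. Beyond the calls lost as given above, Kcnd3 passed in sedentary females without nTG replicate 3 or TG replicate 3. With training in TG males, Kcnj2 passed without trained replicate 4, 5 or 6 or sedentary replicate 7 or 8, and Kcnj5 without sedentary replicate 8. Kcnq1 passed with training in nTG females without trained replicate 4 or sedentary replicate 6.

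No sign was seen that the same replicate numbers pair the mice: libraries with the same number correlated between −0.171 and 0.204, and at most 1 pair of a comparison exceeded 0.1. Pairs with unlike numbers were not set beside them, so this cannot show that the mice are unpaired. With the replicate number as a block, 7 members passed in the mean genotype effect, as without it, and 5, 5, 3 and 6 in the 4 combinations. Other size factors, the library number and leaving out 3 TG libraries chosen for their blood markers moved no count of members by over 1.5 times. These 3 were not the libraries with most blood. Summed blood markers reached 610 CPM at most in trained TG females, where 1 of them lay, against a median of 934 CPM in trained nTG males. No nTG library was left out for blood. The fit with no filter is the same fit, since the filter kept every gene.

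Results rest on the reassignment of columns. Strand, atrial content and cell makeup limit what a level in heart tissue shows.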
